A study of Bos taurus with 9 samples.

Results

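The regions described here are the peaks of both acetylation marks, H3K9ac and H3K27ac, in the rumen epithelium of Holstein calves before weaning. All peaks of the H3K9ac list (14384) and of the H3K27ac list (74249) were taken, 88633 of the 130580 peaks in the 8 lists of the series. The series applied ChIP-seq, the sequencing of DNA bound to an immunoprecipitated protein, to 4 targets before and after weaning with 75-nt reads, 1 library for each target and time point and 1 input library. The groups came from the labels. The rumen is the fermentation chamber of the cattle stomach, which develops as a calf changes from milk to solid feed. How many animals stand behind a library, and their age, are not given in the sources used here. No group had replicates, so no difference below has replicate error and none was tested. Intervals are 95% Wilson or order-statistic intervals that cover counting error only. Both libraries came from rabbit polyclonal antibodies and shared the input, but H3K9ac was run on lane 1 and H3K27ac on lane 2, so mark, antibody and lane cannot be told apart. Read depth is unknown from the lists, and peak numbers depend on it. The study reports a mapping summary of its data sets, which was not used here. The tissue was not checked against marker genes, since no annotation of the assembly of the lists was used.

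Histone acetylation neutralises the charge of lysines on the tails of histones and marks open, active chromatin. H3K9ac, acetylation of histone H3 at lysine 9, is best known from active promoters, where it lies close to the start of transcription. H3K27ac, acetylation at lysine 27, is found at active promoters and also at active enhancers, which can lie far from genes. Butyrate, which microbes produce in the rumen, inhibits histone deacetylases, and therefore acetylation is of particular interest in this tissue. A region with both marks is called doubly acetylated below, and peaks touch when they share at least 1 bp.

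The first question was how far both marks occupied the same places. Most H3K9ac lay within H3K27ac, whereas most H3K27ac peaks had no H3K9ac. Of the H3K9ac peaks, 12949 of 14384 touched an H3K27ac peak, which was 90.0% (95% CI 89.5 to 90.5), while the H3K27ac list covered 1.31% of the genome. In the other direction 11380 of 74249 H3K27ac peaks touched H3K9ac, 15.3% (15.1 to 15.6), while H3K9ac covered 0.169% of the genome. H3K9me3, trimethylation of lysine 9 and a mark of repressed chromatin, served as background measured the same way. Of its 2410 peaks before weaning, 2.28% (1.76 to 2.96) touched H3K27ac and 5.19% (4.37 to 6.15) touched H3K9ac. The share of 5.19% was far above the 0.169% of the genome under H3K9ac, so H3K9me3 was not a neutral background for that mark. After weaning, with 2127 and 30446 peaks in the lists, the shares were 69.3% (67.3 to 71.2) of the H3K9ac peaks and 4.83% (4.60 to 5.08) of the H3K27ac peaks. With as many of the widest H3K27ac peaks as there are H3K9ac peaks, 58.0% of the H3K9ac peaks were touched and 46.6% of those H3K27ac peaks. That setting changed both the length of the list and the widths in it. Merging both lists gave 75593 acetylated regions, of which 11289 (14.9%) were doubly acetylated, 62869 (83.2%) had H3K27ac alone and 1435 (1.90%) had H3K9ac alone.

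Counted in bases the asymmetry was similar. The shared length was 3.98 Mb, which was 88.7% of the 4.48 Mb under H3K9ac peaks and 11.4% of the 34.9 Mb under H3K27ac peaks. The touching peaks formed 13040 pairs, and in 10976 of them (84.2%) the H3K9ac peak lay wholly inside the H3K27ac peak. The peaks overlapped in part in 1923 pairs (14.7%), and in 141 (1.08%) a narrower H3K27ac peak lay inside the H3K9ac peak. Both boundaries were identical to the base in 28 pairs, and at least 1 boundary in 861 (6.60%). Where the overlap had to cover 50% of both peaks, 27.5% of the H3K9ac peaks had an H3K27ac partner.

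Nearly every touched H3K9ac peak had a single partner. An H3K9ac peak touched 1 H3K27ac peak in 12858 cases and 2 in 91 cases (0.633%). The reverse relation was less strict, since 1403 of the 11380 touched H3K27ac peaks (12.3%) held 2 or more H3K9ac peaks, and 3063 H3K9ac peaks (23.7% of those touched) lay in such an H3K27ac peak. Within one H3K27ac peak, neighbouring H3K9ac centres were a median of 551.2 bp apart (538.5 to 564, 1660 pairs of neighbours). The merged region with the most H3K9ac peaks was at chr3:20182720-20187513, where 1 H3K27ac peak held 7 H3K9ac peaks. Regions with 6 H3K9ac peaks were found at chr18:48668515-48674649 and chr13:76625251-76629345, each again under 1 H3K27ac peak. Positions are those of the lists, on the cattle assembly UMD3.1.1.

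Centres of touching peaks were then compared to find whether one mark was displaced from the other. They were not displaced to one side along the chromosome. The lists hold no summits, so the midpoint of a peak was its centre. The H3K27ac centre minus the H3K9ac centre had a median of -1 bp (-3.5 to 1.5), with 49.4% of the H3K27ac centres at the higher coordinate and 50.3% at the lower. Strand was not used, because genes were not assigned to the peaks here, so a shift relative to transcription was not measured. The absolute distance had a median of 133 bp (129.5 to 136.5) and quartiles of 50 and 268 bp. It was 374 bp with the peaks of each list merged within 1 kb. Centres lay within 50 bp of each other in 25.2% of the pairs, within 200 bp in 64.4% and within 500 bp in 91.5%. After weaning the median distance was 73 bp (69 to 79.5) over 1501 pairs, where peaks of both marks were also narrower.

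The distance grew with the width of the H3K27ac peak. It had a median of 41.5 bp (36.5 to 46.5) in H3K27ac peaks of 200 to under 300 bp, 134.5 bp (129.5 to 139) in those of 600 to under 1000 bp and 546 bp (513 to 597.5) in those of 2000 bp or more. A wide peak leaves more room for a distance, so the place of the H3K9ac centre was also expressed along the peak, for H3K27ac peaks with 1 H3K9ac peak. The H3K9ac centre lay in the inner 50% of the H3K27ac peak in 76.4% (75.1 to 77.7) of the pairs below 600 bp, in 74.7% (73.2 to 76.1) from 600 to under 1000 bp, in 67.1% (65.1 to 69.0) from 1000 to under 2000 bp and in 68.3% (60.8 to 74.9) from 2000 bp. A peak that is wholly inside another cannot have its centre at the edge, so these shares are bounded by the widths of both peaks.

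Coverage around the centres showed how far each mark extended around the other. H3K27ac was present at the centre base of 87.4% of the H3K9ac peaks. It was present at 47.9% and 47.1% of them 500 bp to the lower and higher side, at 34.1% and 33.4% 1000 bp away, at 17.7% and 17.8% 2000 bp away, and still at 8.88% and 8.61% 5000 bp away. The same bases around H3K9me3 centres had H3K27ac at 1.66% at the centre and at 0.996% and 0.456% 5000 bp away. H3K9ac around H3K27ac centres was lower throughout, with 9.49% at the centre and 0.976% and 1.01% at 5000 bp. It was not a single decline. H3K9ac was at 3.14% and 3.17% at 500 bp and slightly higher, at 3.22% and 3.27%, at 750 bp.

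**Figure D1:**
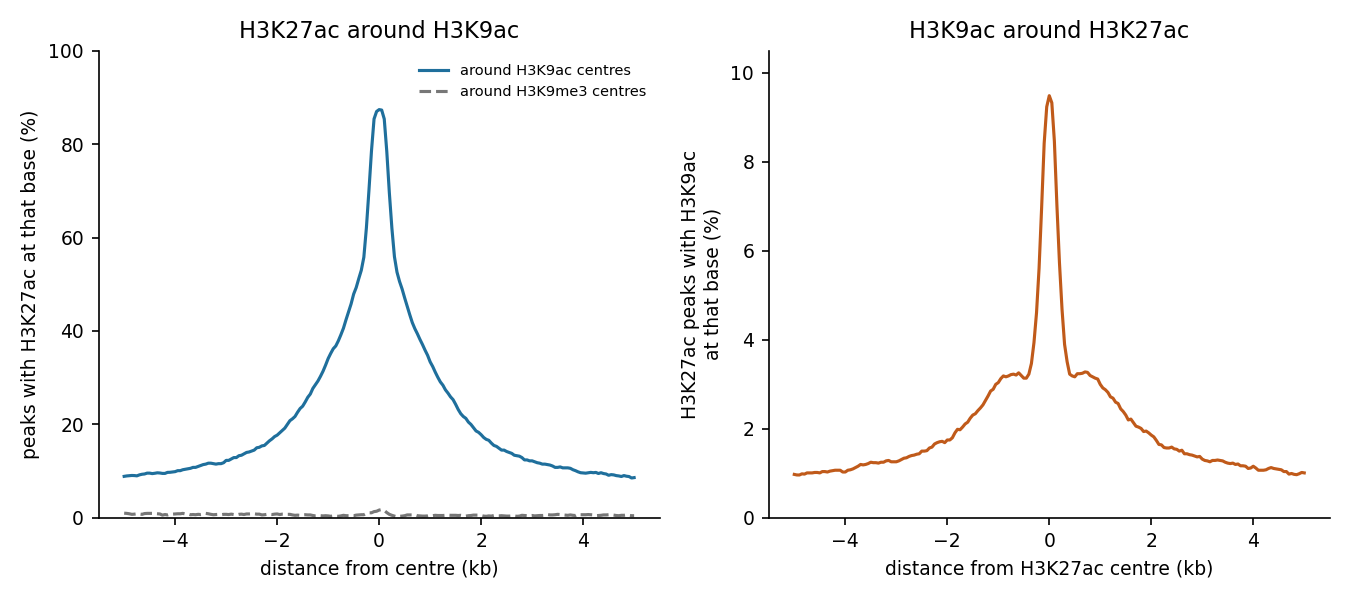
Share of peaks (%) covered by the other mark every 50 bp from -5 to 5 kb of the peak centre, H3K27ac around H3K9ac centres (solid) and H3K9me3 centres (dashed) on the left and H3K9ac around H3K27ac centres on the right, with different vertical scales. H3K27ac falls from 87.4% at the H3K9ac centre to under 9% at 5 kb, and H3K9ac shows shoulders near 750 bp on both sides of the H3K27ac centre.

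The shape differed between width classes of H3K27ac. In H3K27ac peaks of 600 to under 1000 bp, H3K9ac (mean of both sides) was at 19.8% at the centre, 1.18% at 500 bp and 5.07% at 850 bp. In those of 300 to under 600 bp it was at 9.53%, 0.908% at 300 bp and 3.29% at 650 bp. In the narrowest class, 200 to under 300 bp, it was at 2.59%, 0.730% at 250 bp and 2.13% at 600 bp. In the class from 1000 bp the decline from 26.8% was almost unbroken, with 6.10% at 850 bp and 6.68% at 950 bp. In the classes below 1000 bp the dips lay at or beyond the ends of the H3K27ac peaks, so their places followed the widths of the classes. The cause of the dips was not tested.

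The second question was how many H3K27ac peaks accompanied each H3K9ac peak. Nearly all H3K9ac peaks had H3K27ac nearby, and how many peaks were counted depended on how H3K27ac was divided into peaks. Within 5 kb of the edges of an H3K9ac peak there were on average 3.57 ± 2.24 H3K27ac peaks (SD over 14384 peaks), touching ones included, with a median of 3 and a highest number of 14. The mean was 1.48 with H3K27ac peaks within 1 kb merged and 1.28 with as many of the widest H3K27ac peaks as there are H3K9ac peaks. The density of H3K27ac peaks over the genome would give 0.301, and around the 2410 H3K9me3 peaks the mean was 0.177 ± 0.595. At least 1 H3K27ac peak was found for 97.1% (96.8 to 97.4) of the H3K9ac peaks, 5 or more for 29.5% (28.8 to 30.2) and 10 or more for 1.36% (1.19 to 1.57). An H3K27ac peak had 2.64 ± 2.23 other H3K27ac peaks within 5 kb, against 2.66 ± 2.19 H3K27ac peaks that were near but not touching around an H3K9ac peak. H3K27ac peaks with H3K9ac had 2.85 ± 2.29 such neighbours and those without had 2.61 ± 2.22, and 11.4% and 17.3% of them had none.

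**Figure D2:**
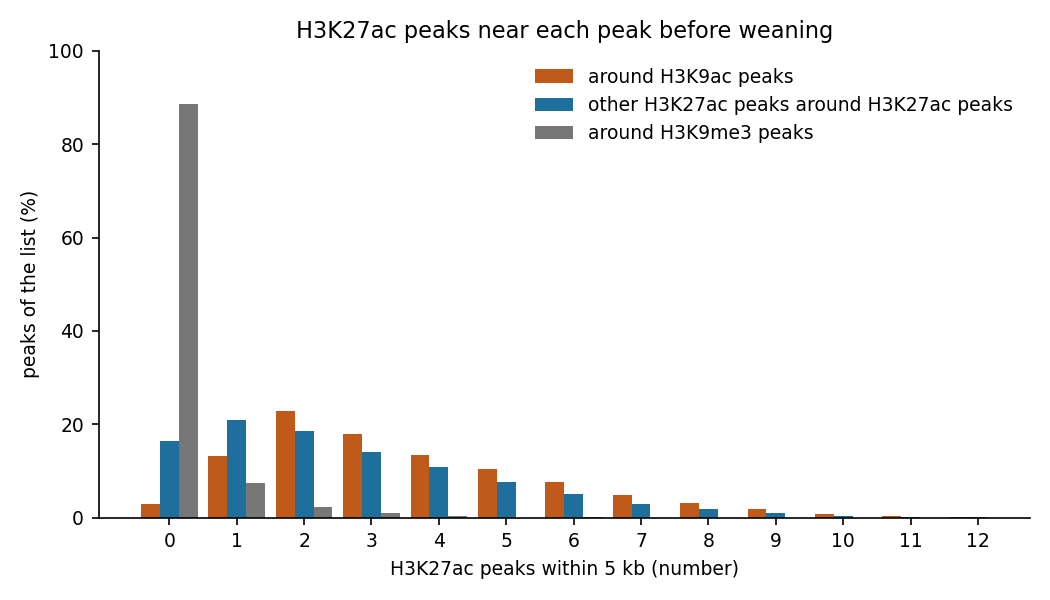
Share of peaks (%) by the number of H3K27ac peaks within 5 kb of their edges, for H3K9ac peaks (touching ones counted), for H3K27ac peaks (other peaks of the same list) and for H3K9me3 peaks, all before weaning and drawn up to 12. No H3K27ac peak was near 2.91% of the H3K9ac peaks, 16.4% of the H3K27ac peaks and 88.7% of the H3K9me3 peaks.

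Not counting touching ones, H3K9ac peaks had on average 1.34 ± 1.42 H3K27ac peaks on the lower side and 1.32 ± 1.42 on the higher side, again without regard to strand. They were flanked on both sides in 41.1% (40.3 to 41.9) of the cases, on 1 side in 44.6% (43.8 to 45.4) and on neither in 14.3% (13.7 to 14.8). With H3K27ac peaks within 1 kb merged, the share flanked on both sides was 9.18%. Among the H3K9ac peaks with the most companions, those at chr22:21718115-21718330 (216 bp) and chr18:6551312-6551520 (209 bp) each had 14 H3K27ac peaks within 5 kb, while those at chr8:70356934-70357418, chr18:6552421-6552750 and chr7:12992012-12992320 each had 13. All 5 touched an H3K27ac peak, as did 90.0% of all H3K9ac peaks, and touching peaks were part of the count that ranked them. The widest of those partners measured 1691 bp.

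Chaining H3K27ac peaks that lie within 5 kb of each other gave 28456 clusters, of which 8125 (28.6%) held H3K9ac, counting also H3K9ac peaks in the gaps of a cluster. Single H3K27ac peaks, 12161 in all, held H3K9ac in 10.7% (10.2 to 11.3) of the cases, clusters of 2 in 30.7% (29.6 to 31.8), clusters of 5 to 9 in 59.4% (57.6 to 61.1) and clusters of 10 or more in 84.2% (81.5 to 86.6). Larger clusters offer more H3K27ac to be touched. Per Mb of H3K27ac peak the number of H3K9ac peaks in a cluster ranged from 311 in single peaks to 415 in clusters of 2, with 382 in clusters of 10 or more. The cluster with the most peaks, at chr20:4493816-4572567, spanned 78.8 kb with 48 H3K27ac and 15 H3K9ac peaks.

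Width set both classes of H3K27ac peak apart. H3K27ac peaks with H3K9ac had a median width of 740 bp (729 to 749) and quartiles of 479 and 1105 bp. Those without had a median of 313 bp (312 to 315) and quartiles of 239 and 468 bp. With H3K27ac peaks within 1 kb merged, the medians were 1781 bp with and 398 bp without H3K9ac, so the widths depend on how peaks are divided. The share with H3K9ac rose from 3.16% (2.97 to 3.37) of the 30213 peaks of 200 to under 300 bp to 15.4% (14.8 to 16.0) at 400 to under 600 bp, 34.1% (33.2 to 35.0) at 600 to under 1000 bp, 61.3% (59.9 to 62.6) at 1000 to under 2000 bp and 87.3% (84.2 to 89.8) of the 543 peaks of 2000 bp or more. A wider peak can touch more by its length alone, so H3K9ac centres were also counted per Mb of H3K27ac peak. Their density rose as well, from 104 per Mb in the narrowest class through 306 and 472 to 699.5 per Mb in the widest, against 0.689 per Mb outside H3K27ac.

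**Figure D3:**
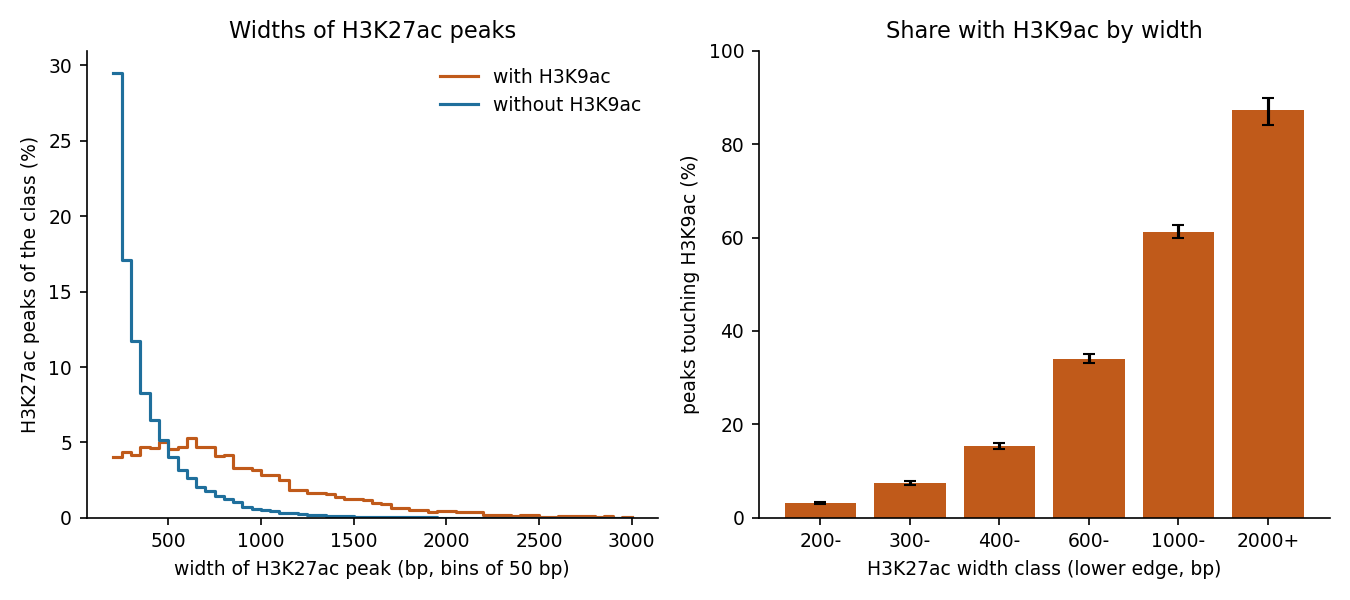
Left, distribution of H3K27ac peak widths (bp, bins of 50 bp, drawn up to 3000 bp) with and without a touching H3K9ac peak, as a share of each class (%); right, share of H3K27ac peaks (%) that touch H3K9ac in 6 width classes named by their lower edge, with 95% Wilson intervals. Peaks with H3K9ac spread widely around 740 bp, those without crowd near 200 to 300 bp, and the share rises in each class from 3.16% to 87.3%.

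The width also followed the number of H3K9ac peaks held. Separate H3K9ac peaks need room side by side, so part of this rise is set by their number alone. H3K27ac peaks with 1 H3K9ac peak had a median width of 677 bp (667 to 687, n = 9977), those with 2 had 1373 bp (1335 to 1410, n = 1198), those with 3 had 2048 bp (1923 to 2149, n = 169) and those with 4 had 3185 bp (2404 to 3434, n = 24). Among H3K27ac peaks without H3K9ac, the 19436 within 5 kb of an H3K9ac peak had a median of 337 bp (334 to 341) and the 43433 farther away 304 bp (302 to 305). In H3K27ac peaks with no other H3K27ac peak within 5 kb the medians were 745 bp with and 277 bp without H3K9ac, so the contrast was also seen outside clusters. After weaning the medians were 454 bp (440 to 471) with and 285 bp (283 to 287) without H3K9ac.

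The widest H3K27ac peaks with H3K9ac were at chr18:48668515-48674649 (6135 bp, 6 H3K9ac peaks), chr17:55749420-55755197 (5778 bp, 5 H3K9ac peaks), chr24:37937384-37943141 (5758 bp, 5), chr25:34854361-34859539 (5179 bp, 5) and chr5:28064219-28069144 (4926 bp, 4). All 5 touched an H3K27ac peak after weaning, as did all 36 H3K27ac peaks with 4 or more H3K9ac peaks and 27.9% of all H3K27ac peaks. The widest without H3K9ac were at chr17:62349213-62352445 (3233 bp), chr21:42196323-42199546 (3224 bp), chr19:51637816-51640987 (3172 bp), chr18:54253407-54256449 (3043 bp) and chr13:74425484-74428431 (2948 bp). Of these 5, that on chromosome 17 touched no H3K27ac peak after weaning, and that on chromosome 21 had no other H3K27ac peak within 5 kb. H3K27ac after weaning touched 46.1% of all H3K27ac peaks without H3K9ac that were 559 bp or wider.

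H3K9ac peaks differed in the same direction. With H3K27ac their median width was 273 bp (271 to 276) and without it 226 bp (223 to 229). By 4 groups of increasing H3K9ac width, H3K27ac was touched by 82.0% (80.7 to 83.2), 87.0% (85.8 to 88.0), 93.0% (92.2 to 93.8) and 98.1% (97.6 to 98.5). The widest H3K9ac peak, at chr3:14131713-14133293 (1581 bp), lay in an H3K27ac peak of 3648 bp with centres 3.5 bp apart. The next, at chr3:9893570-9895128 (1559 bp), lay in one of 3750 bp with centres 55.5 bp apart. The other widest H3K9ac peaks with H3K27ac were at chr13:81875818-81877291, chr3:20172634-20174050 and chr11:67965202-67966540, in H3K27ac peaks of 3404, 2525 and 2032 bp.

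The 1435 H3K9ac peaks without H3K27ac were seldom far from it. The nearest H3K27ac peak was a median of 1451 bp away (quartiles 361 and 6648 bp), within 1 kb for 605 (42.2%) and within 5 kb for 1017 (70.9%). The other 418 had no H3K27ac peak within 5 kb. From H3K27ac peaks without H3K9ac the nearest H3K9ac peak was a median of 18249 bp away, and 19436 of 62869 (30.9%) lay within 5 kb of one. The H3K9ac list is the shorter, with 14384 against 74249 peaks, so these distances in both directions are not comparable. The widest H3K9ac peaks without H3K27ac were at chr18:52775928-52776528 (601 bp), chr10:82620380-82620978 (599 bp), chr7:63803985-63804574 (590 bp), chr4:94263185-94263739 (555 bp) and chr4:94650779-94651313 (535 bp). The first 2 touched RNA pol II and H3K9me3 before weaning and both acetylation marks after weaning, and the other 3 touched none of these 4 lists.

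The other libraries, which did not enter the choice of peaks, were then laid over the classes. The time points of the RNA pol II lists follow the labels, although the text of the study places the shorter of both lists before weaning. RNA polymerase II (RNA pol II) transcribes protein-coding genes. Over all H3K27ac peaks 2.07% touched RNA pol II before weaning, and over all H3K9ac peaks 7.07%. Among H3K27ac peaks the share was 9.28% (8.76 to 9.83, 1056 of 11380) with H3K9ac and 0.768% (0.703 to 0.840, 483 of 62869) without. Where the centre of the H3K27ac peak had to lie inside an RNA pol II peak, the difference was 2.50 percentage points in place of 8.51. The share touching RNA pol II was 7.37% (6.87 to 7.90) with 1 H3K9ac peak, 20.3% (18.1 to 22.7) with 2, 33.1% (26.5 to 40.5) with 3 and 61.1% (44.9 to 75.2, 22 of 36) with 4 or more, and width rose along with these numbers. With the RNA pol II list labelled after weaning in its place, the shares were 0.404% with and 0.0175% without H3K9ac. H3K9ac peaks with and without H3K27ac touched RNA pol II before weaning at shares of 7.15% (6.72 to 7.61) and 6.34% (5.19 to 7.72), with overlapping intervals.

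The contrast was also present within each of 4 groups of H3K27ac width, although widths still vary inside a group, most of all in the widest. In the narrowest group (200 to 248 bp) RNA pol II was touched by 3.15% (1.88 to 5.21) with and 0.143% (0.0973 to 0.209) without H3K9ac, and in the widest (559 to 6135 bp) by 12.1% (11.4 to 12.8) and 2.61% (2.32 to 2.92). In the narrowest group with H3K9ac, 14 of 445 peaks also touched H3K9me3 before weaning, the same share of 3.15%. In the widest group this was 7 of 7715 (0.0907%).

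H3K9me3 before weaning touched 0.0741% of all H3K27ac peaks and 0.911% of all H3K9ac peaks. Among H3K27ac peaks it touched 0.325% (0.236 to 0.448, 37 of 11380) with and 0.0286% (0.0181 to 0.0453, 18 of 62869) without H3K9ac, so this background mark, at a far lower level, was also more frequent with H3K9ac. Among H3K9ac peaks it was found mainly on those without H3K27ac, with 6.48% (5.32 to 7.87, 93 of 1435) against 0.293% (0.214 to 0.403, 38 of 12949) with H3K27ac. Of the 93 peaks, 27 lay on chromosome 17, where 62 H3K9ac peaks had no H3K27ac, and 10 lay on chromosome 9, where 54 had none. Among the 418 H3K9ac peaks with no H3K27ac within 5 kb, 16.3% (13.0 to 20.1) touched H3K9me3 and 15.8% (12.6 to 19.6) touched RNA pol II, whereas among the 1017 nearer ones each share was 2.46% (1.67 to 3.60). Whether the same peaks touched both lists was not tested. H3K9ac without H3K27ac also touched H3K9me3 after weaning in 5.92% (4.82 to 7.27) of the cases and the RNA pol II list labelled after weaning in 5.99% (4.88 to 7.34), against 0.286% and 0.355% of the H3K9ac peaks with H3K27ac. Without the peaks that touch H3K9me3 before weaning, 90.6% of the H3K9ac peaks touched H3K27ac and 15.3% of the H3K27ac peaks touched H3K9ac. The median centre distance was then 133.5 bp and the median H3K27ac widths were 741 bp with and 313 bp without H3K9ac. The share of H3K27ac peaks with H3K9ac minus that without was 8.28 percentage points for RNA pol II before weaning, against 8.51 over all peaks, and 44.6 for H3K27ac after weaning, against 44.7.

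**Figure D4:**
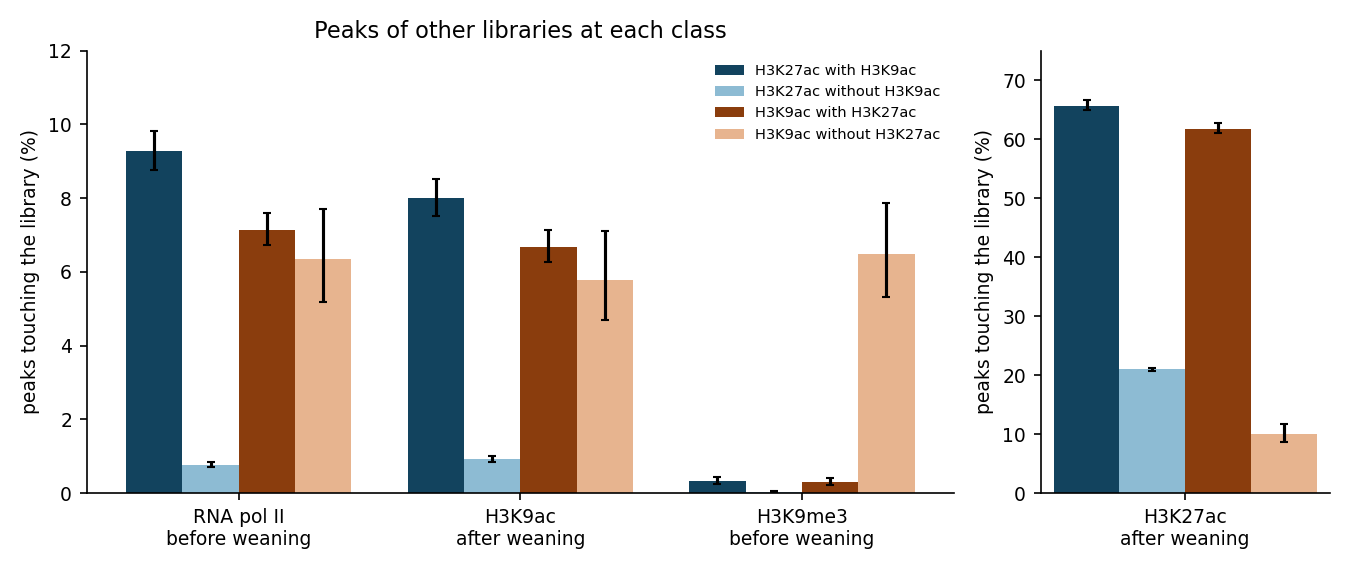
Share of peaks (%) that touch a peak of RNA pol II before weaning, H3K9ac after weaning, H3K9me3 before weaning (left) or H3K27ac after weaning (right, other scale), for H3K27ac peaks with and without H3K9ac and H3K9ac peaks with and without H3K27ac, with 95% Wilson intervals. H3K27ac with H3K9ac exceeds H3K27ac without it in each library, for example 65.7% against 21.0% for H3K27ac after weaning, and H3K9me3 is seen mainly at H3K9ac without H3K27ac (6.48%).

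The classes also differed in overlap with the acetylation lists after weaning. H3K27ac after weaning touched 27.9% of all H3K27ac peaks before weaning, 65.7% (64.9 to 66.6) of those with H3K9ac and 21.0% (20.7 to 21.3) of those without. It touched 62.3% (61.4 to 63.3) with 1 H3K9ac peak, 88.6% (86.6 to 90.2) with 2, 97.0% (93.3 to 98.7) with 3 and all 36 with 4 or more. Width rose along with these numbers, and the 2 were not separated. In the 4 width groups the shares with and without H3K9ac were 14.4% and 9.68%, 28.4% and 14.5%, 50.1% and 24.1%, and 77.8% and 46.1%, so the contrast was smallest among the narrowest peaks. Of all H3K9ac peaks 56.7% touched H3K27ac after weaning, 61.8% (61.0 to 62.7) with H3K27ac before weaning and 10.1% (8.65 to 11.8) without. H3K9ac after weaning touched 6.60% of all H3K9ac and 2.01% of all H3K27ac peaks. It touched 910 of 11380 (8.0%, 7.51 to 8.51) of the H3K27ac peaks with H3K9ac and 0.924% (0.852 to 1.00) of those without.

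H3K9ac peaks with no H3K27ac peak within 5 kb stood apart from the others in these readouts. Of these 418 peaks, 15.8% touched RNA pol II before weaning, 13.2% touched H3K27ac after weaning and 16.3% touched H3K9me3 before weaning. How far these were the same peaks was not tested. With 1, 2, 3, 4, 5 and 6 or more H3K27ac peaks nearby, RNA pol II was touched by 5.80%, 6.65%, 7.43%, 7.46%, 7.28% and 6.41% of the H3K9ac peaks, and H3K27ac after weaning by between 55.6% and 60.7%. H3K9me3 was touched by 2.14%, 0.364%, 0.272% and 0.103% with 1, 2, 3 and 4 such neighbours, by 0 of 1498 peaks with 5, which allows a share of up to 0.20% (3 counts), and by 0.0364% with 6 or more. The median H3K9ac width lay between 262 and 273 bp in the groups with at least 1 neighbour and was 225 bp with no H3K27ac peak within 5 kb.

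The overlap was found on each of the 30 chromosomes, 1 to 29 and X. Among H3K9ac peaks, those touching H3K27ac ranged from 82.7% (78.2 to 86.5) on chromosome 9 and 84.5% (80.6 to 87.7) on chromosome 17 to 95.1% (92.3 to 96.9) on chromosome 29. Without H3K9ac peaks that touch H3K9me3 it was 85.3% (80.8 to 88.9) on chromosome 9 and 90.4% (87.0 to 93.0) on chromosome 17. In the other direction 5.28% (4.11 to 6.77) of the H3K27ac peaks on X touched H3K9ac, below the autosomes, which ranged from 11.9% on chromosome 24 to 18.1% on chromosomes 3 and 23. X had 1098 H3K27ac and 70 H3K9ac peaks, 15.7 to 1, whereas this ratio was between 4.40 and 6.57 on the autosomes. Of the 70 H3K9ac peaks on X, 87.1% (77.3 to 93.1) still touched H3K27ac.

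**Figure D5:**
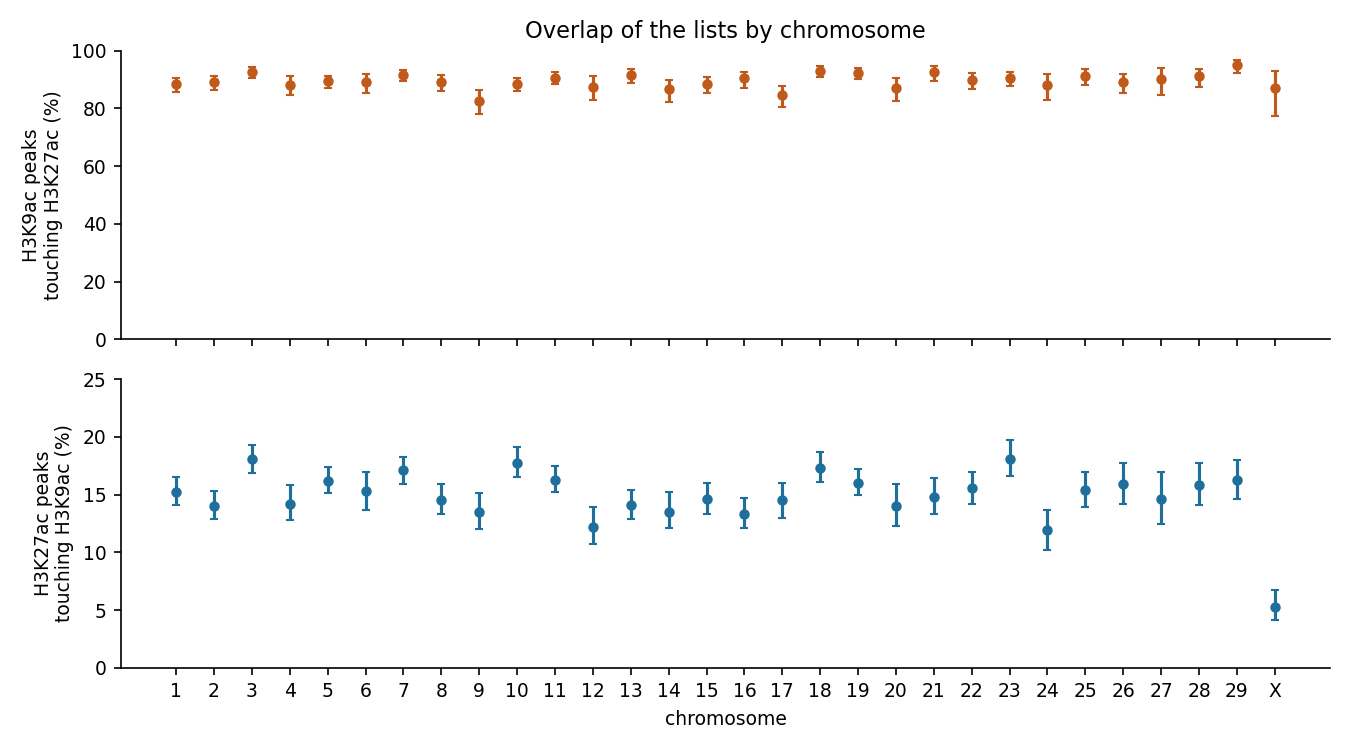
Share of H3K9ac peaks that touch H3K27ac (top, %) and of H3K27ac peaks that touch H3K9ac (bottom, %, other scale) on each chromosome before weaning, with 95% Wilson intervals. The upper shares lie between 82.7% and 95.1%, and in the lower panel X (5.28%) lies below all autosomes.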

How the data were processed

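ChIP-seq peak lists of 8 libraries were used, 1 per target and time point. The authors discarded low-quality reads, aligned the others with BWA to UMD3.1.1 (UMD3.1 in the submitters' processing notes), kept unique alignments with few mismatches and called peaks with MACS2 against the input. The deposited values are peak starts and ends in bp, with no height, score or p-value.

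End minus start was at least 199, so positions were read as 1-based with both ends included (lowest width 200 bp). Overlap was the share of peaks of one list touching the other, as in the study. The genome was the summed extent of the chromosomes over the lists, 2658.3 Mb. Analyses used Python 3.11.15, pandas 2.3.3 and scipy 1.17.1, and overlap, offset and window counts were tested on simulated data. Named regions were the 5 widest of each class, the 5 H3K9ac peaks with the most H3K27ac within 5 kb and the 3 merged regions with the most H3K9ac. Other overlap rules, windows, merged or shorter lists and width groups were tried as alternatives. Members and lists were chosen with earlier results of these data known. Gene assignment was left out, as the gene table used here is of another assembly.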

Additional observations from a re-analysis of the deposited data

How the results depend on the processing

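Of 66 recomputed values, 17 stayed within the 95% interval of the value reported and 49 moved outside it. Only the signed centre distance and the differences in percentage points could change sign, and none of these did. The other values cannot be negative. The overlap, as shares of H3K9ac and of H3K27ac peaks, was 90.0% and 15.3%. It was 27.5% and 5.33% with a reciprocal overlap of 50%, 87.4% and 9.49% for centres inside a peak, 94.2% and 27.1% with peaks extended by 1 kb, 88.8% and 21.8% after merging within 1 kb, 90.7% and 16.0% for peaks wider than the median, 58.0% and 46.6% with equal numbers of the widest, and 54.7% and 45.0% with equal numbers in row order, a setting chosen after seeing the data. Without H3K9me3 the first share was 90.6%. The absolute centre distance of 133 bp was 97 bp in one-to-one pairs, 147.5 bp to the nearest centre within 5 kb, 374 bp after merging and 143 bp for peaks wider than the median, and the signed median was -3.75 bp after merging. The mean number of H3K27ac peaks near H3K9ac, 3.57, and the share flanked on both sides, 41.1%, were 2.43 and 28.4% within 2 kb, 4.98 and 51.3% within 10 kb, 3.43 and 40.0% between centres, 1.48 and 9.18% after merging, 2.35 and 23.4% for peaks wider than the median, and 1.28 and 8.50% with equal numbers of the widest. The median width with H3K9ac was 758 bp for centres inside and 1781 bp after merging. Without H3K9ac it was 337 bp near and 304 bp far from H3K9ac, 398 bp after merging, 277 bp for isolated peaks and 326 bp above the lowest width. The RNA pol II share with minus without H3K9ac, 8.51 percentage points, was 2.50 by centres and 3.0, 1.75, 3.22 and 9.47 in the 4 width groups. For H3K27ac after weaning it was 31.5 by centres and 4.71, 13.9, 26.1 and 31.7 in the width groups, against 44.7. Other windows change the counts of neighbours by construction, and the settings with equal numbers changed both the length of the list and which peaks were in it. The causes of the other moves were not tested. Genes near the peaks were not compared, as the gene table used here is of another assembly. No paired analysis was possible because each group has 1 library, which also leaves no replicate to leave out.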
